A study of Mus musculus with 12 samples.

Results

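Epithelial cells of small intestinal organoids that were co-cultured with regulatory T (Treg) cells were compared in the presence of an antibody against the IL-10 receptor (IL-10R) alone and in the presence of antibodies against IL-10R and IFNγ together, to ask what a block of IFNγ changed in these cells when the IL-10 receptor was already blocked. The cells were chosen by their hashtag, an antibody with an oligonucleotide tag that marks the group a cell came from before all groups were pooled. A cell was kept when exactly 1 hashtag was called in its library and when it held 10000 to 90000 unique molecular identifiers (UMIs, each a counted mRNA molecule), 3000 to 10000 genes and at most 8.5% mitochondrial UMIs. Of 11987 cells that passed these limits in 6 groups, 1982 carried the hashtag of Treg_aIFNg_aIL10R (both antibodies; 749, 829 and 404 cells in replicates 1, 2 and 3) and 2119 that of Treg_aIL10R (anti-IL-10R; 790, 972 and 357 cells).

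Passaged organoids of wild-type BALB/c mice were cultured for 4 days with 100000 allogeneic CD25high FoxP3-GFP+ Treg cells per well, which lay apart from the organoid drop, with 30 U/ml IL-2 and with beads that stimulate CD3 and CD28. These conditions were shared by both groups, and each blocking antibody was present at 10 µg/ml from the start. Another 3 groups served as a reference for the levels reported here: organoids without T cells (control), organoids with Treg cells and no antibody, and organoids with recombinant cytokines in place of T cells (rIFNγ at 0.25 ng/ml and rIL-10 at 10 ng/ml). The sixth group, Treg cells with anti-IFNγ alone, gave the effect of the same antibody when IL-10R was not blocked. Live EpCAM+ cells, all that the sort kept, were sequenced in 5 libraries from 3 replicates, of which replicates 1 and 2 had 2 libraries each. A group had the same hashtag in all libraries, so an effect of the hashtag antibody and of the culture condition cannot be told apart. The median kept cell held 88, 87 and 248 hashtag UMIs in replicates 1, 2 and 3 with both antibodies. With anti-IL-10R it held 165.5, 306.5 and 459. Whether this difference affected which cells were kept was not tested. In the main fits, p-values of genes rest on the spread left after fitting group and replicate, over all 6 groups in these 3 replicates. The exact tests of shares and scores compare the replicates of the 2 groups.

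IFNγ binds a receptor of the subunits IFNGR1 and IFNGR2, and the kinases JAK1 and JAK2 then pass the signal to GAS elements in promoters. Among the genes induced is IRF1, which itself acts on ISRE elements, and further targets include CIITA (the master activator of MHC class II genes), the immunoproteasome, guanylate binding proteins (GBPs) and immunity-related GTPases. Intestinal epithelial cells respond to IFNγ with antigen presentation genes of both MHC classes, whereas IL-10 signals through IL-10RA and IL-10RB to STAT3.

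The libraries held 5387 to 7995 barcodes each, and 1 barcode of the 4101 cells was found in more than 1 library. The median cell had 42375 to 46207 UMIs with both antibodies and 43297 to 46595 with anti-IL-10R, and the UMIs of a group summed to between 16958859 and 43162630 in a replicate. Epcam, the epithelial surface protein used in the sort, had a UMI in 99.7% to 100% of the cells of each replicate. In all, 5 barcodes, each with anti-IL-10R (2 in replicate 2 and 3 in replicate 3), held UMIs of 14 to 17 of 20 T cell markers, whereas any other kept cell held at most 3. The markers of the T cell list summed to 3.95, 12.1 and 27.5 CPM (UMIs of a gene scaled to the same total in each sum) with anti-IL-10R and to 3.41, 5.08 and 5.19 with both antibodies, and Ifng and Gzmb were at 0 in both groups. Markers of myeloid and stromal cells (17 genes) summed to 3.41, 5.95 and 13.7 CPM with anti-IL-10R and to 6.27, 7.79 and 2.86 with both antibodies. Without the 5 barcodes, 72 genes were lower and 9 higher in the comparison of all cells, and 81 of the 84 calls described next were made again. The calls lost included those of Ly6e (adjusted p = 0.0646) and H2-M3.

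With both antibodies, 74 of 14994 tested genes were lower than with anti-IL-10R alone (0.494%) and 10 were higher (0.0667%). The genes that fell were led by Irf1, the proteasome activator Psme1, the antiviral membrane protein Ifitm3 and the immunoproteasome, and MHC class II genes had the widest gaps. Of the 74 genes, 20 fell by more than 2 on the log2 scale, 41 fell by more than 1, and 27 were on 1 of 7 lists of interferon response and antigen presentation genes. For each group and replicate the UMIs of its cells were added up and tested with edgeR's quasi-likelihood test with the replicate as a block, and adjusted p-values (Benjamini-Hochberg over all genes tested) are from this fit unless another is named. Fold changes are log2 differences, both antibodies minus anti-IL-10R, with a standard error (SE) derived from the fold change and the F statistic of the test. In all 3 replicates, each of the 74 genes was lower with both antibodies. For 62 of them the values of the groups did not overlap, against 3.21% of all tested genes in this direction, and the same held for 7 of the 10 genes that rose against 2.39%. Within the 5 libraries, 73 of the 74 were lower in 5 of 5 and the other was lower in 4 of 5, and 10 of 10 were higher in 5 of 5. The genes were called from these same counts, which favors one direction throughout, and libraries of the same replicate are not independent. These counts of replicates and libraries are therefore no further test. Leaving out replicate 3 left no gene called (lowest adjusted p = 0.0553, 945 genes at an unadjusted p under 0.05), while 27 genes were called without replicate 2 and 341 without replicate 1. When the replicate block was left out of the fit, 24 genes remained called.

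The promoters of the 6 genes with the lowest p among those that fell are shown here because IFNγ acts on transcription through short elements near the start site. They run from 250 bases before the start of the gene to 50 bases after it, 5′ to 3′ on the strand of the gene, in the build GRCm38.p6 and as given by RefSeq. Capitals mark a match to GAS (TTCNNNGAA) or ISRE (GAAANNGAAA) on either strand, and matches of both motifs may lie next to or over each other.
Irf1, chr11:53769764-53770063, plus strand: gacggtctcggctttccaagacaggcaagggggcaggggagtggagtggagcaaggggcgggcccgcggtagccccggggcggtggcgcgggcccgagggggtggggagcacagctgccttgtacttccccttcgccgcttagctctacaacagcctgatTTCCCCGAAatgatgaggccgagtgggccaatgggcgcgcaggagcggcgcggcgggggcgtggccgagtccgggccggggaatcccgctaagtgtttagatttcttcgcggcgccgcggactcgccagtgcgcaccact
Psme1, chr14:55578244-55578543, plus strand: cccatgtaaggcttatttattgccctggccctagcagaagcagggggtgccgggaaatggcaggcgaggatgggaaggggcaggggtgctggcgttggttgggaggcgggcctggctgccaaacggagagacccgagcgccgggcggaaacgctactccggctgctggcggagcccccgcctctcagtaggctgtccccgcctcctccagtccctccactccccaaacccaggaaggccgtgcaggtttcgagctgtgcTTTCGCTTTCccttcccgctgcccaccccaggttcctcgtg
Ifitm3, chr7:141010695-141010994, minus strand: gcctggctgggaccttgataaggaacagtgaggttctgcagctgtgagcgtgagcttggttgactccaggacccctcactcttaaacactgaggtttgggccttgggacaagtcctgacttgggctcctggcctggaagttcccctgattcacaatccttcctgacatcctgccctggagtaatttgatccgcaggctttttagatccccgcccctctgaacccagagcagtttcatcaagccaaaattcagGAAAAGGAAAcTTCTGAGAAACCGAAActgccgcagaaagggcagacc
Gm12216, chr11:53859207-53859506, minus strand: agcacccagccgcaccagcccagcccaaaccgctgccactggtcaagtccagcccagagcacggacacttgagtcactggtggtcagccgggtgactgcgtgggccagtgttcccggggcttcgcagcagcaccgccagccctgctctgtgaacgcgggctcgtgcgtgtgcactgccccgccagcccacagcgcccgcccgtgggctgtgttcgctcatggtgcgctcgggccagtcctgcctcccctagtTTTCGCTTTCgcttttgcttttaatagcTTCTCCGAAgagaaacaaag
Nmi, chr2:51973159-51973458, minus strand: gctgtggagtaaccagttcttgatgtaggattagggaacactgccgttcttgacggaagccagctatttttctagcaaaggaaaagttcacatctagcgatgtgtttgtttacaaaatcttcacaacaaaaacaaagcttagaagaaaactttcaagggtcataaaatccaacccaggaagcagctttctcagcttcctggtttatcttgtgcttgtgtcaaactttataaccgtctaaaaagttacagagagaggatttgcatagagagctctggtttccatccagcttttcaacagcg
Psme2, chr14:55591052-55591351, minus strand: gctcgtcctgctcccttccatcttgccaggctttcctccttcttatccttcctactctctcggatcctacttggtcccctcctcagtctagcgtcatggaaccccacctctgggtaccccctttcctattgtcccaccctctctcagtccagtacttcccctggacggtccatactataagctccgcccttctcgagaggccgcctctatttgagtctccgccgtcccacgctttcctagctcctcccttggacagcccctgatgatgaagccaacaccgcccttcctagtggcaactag
In Irf1 the GAS match began 90 bases before the start, and in Psme1 an ISRE match lay 9 bases after it. Ifitm3 held 2 ISRE matches and 1 GAS match within its first 50 bases, where the GAS match overlapped the later ISRE match only. Gm12216 held 1 match of each motif. Nmi and Psme2 held neither motif in this window, which says only that these letters are not there. A promoter was at hand for 58 of the 74 genes that fell, and 19 of these 58 (32.8%) held a GAS or ISRE match, against 9.62% of the promoters of tested genes and 11.4% of all 27025 promoters of the table. GAS, with or without ISRE, was matched in 19% of the 58, in 6.98% of promoters of tested genes and in 8.47% of all promoters. For ISRE, with or without GAS, these shares were 22.4%, 3.06% and 3.49%. Of 8 promoters of genes that rose, 1 held a match (in Ifit2). These shares are descriptions of the sequence and locate no binding.

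The genes that fell included transcription factors of the pathway. Irf1 was counted at 45.9, 73.6 and 66.0 CPM in replicates 1, 2 and 3 with anti-IL-10R and at 8.79, 6.43 and 7.68 CPM with both antibodies. The groups lay far apart, and the control was at 9.77, 6.84 and 7.51 CPM, close to the values with both antibodies. The log2 fold change was -3.05 (SE 0.279, adjusted p = 0.000368). Irf9, the DNA-binding subunit of the type I interferon complex, fell by 1.17 from 8.62, 9.52 and 9.02 to 5.32, 4.04 and 2.70 CPM (adjusted p = 0.00194). Of the 16 receptor and transducer genes, all tested, 3 fell (Irf1 and Irf9 among them), none rose, and the median of the list was -0.29 against 0.00074 over all tested genes. The receptor subunits gave no call. Ifngr1 was at 105, 91.8 and 104 CPM with anti-IL-10R and at 113, 102 and 112 with both antibodies (0.11, SE 0.0596, adjusted p = 0.541), Ifngr2 was at 70.2, 60.3 and 68.2 against 75.8, 67.9 and 70.6, and the groups overlapped for both. Jak1 (-0.06) and Jak2 (-0.08) lay close to 0. Socs1, an inhibitor of JAK kinases, was at 1.37, 2.92 and 2.48 CPM against 1.09, 0.847 and 0.794 and did not pass the test (-1.32, SE 0.533, adjusted p = 0.419).

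**Figure D1:**
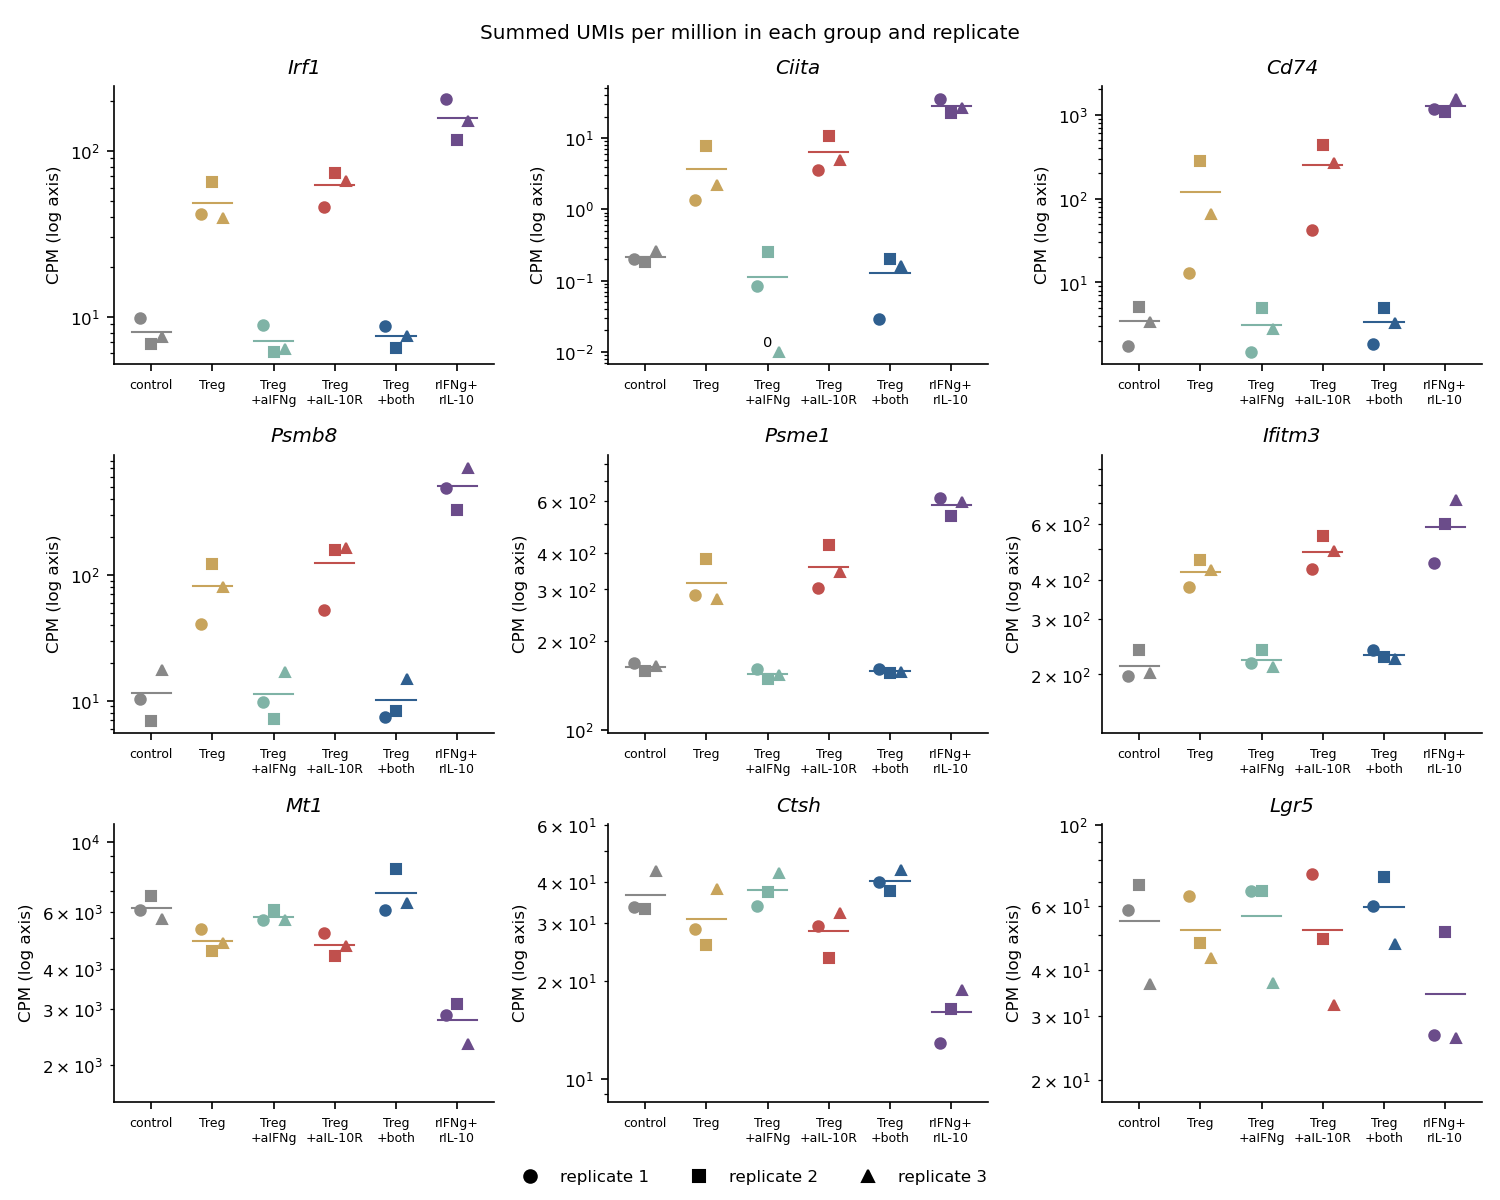
Levels of genes named in the text (CPM on a log axis) in the 6 groups, each symbol a replicate and each line a mean; for Ciita the value of 0 in replicate 3 of Treg cells with anti-IFNγ is drawn at 0.01 and marked 0. Irf1 sat at 45.9 to 73.6 CPM with anti-IL-10R and at 6.43 to 8.79 with both antibodies, next to the control.

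Genes that process peptides for MHC class I were among those that fell. Of the 8 immunoproteasome and proteasome activator genes 5 fell and none rose, with a median of -1.25. Psmb8, a catalytic subunit that replaces a constitutive one under IFNγ, was at 52.8, 156 and 163 CPM with anti-IL-10R and at 7.44, 8.3 and 14.9 with both antibodies. Replicate 1 held the lowest value with anti-IL-10R and was still above every value with both antibodies, and the fold change was -3.59 (SE 0.427, adjusted p = 0.00139). Psmb9 (-2.18) and Psmb10 (-1.37), the other exchanged subunits, fell as well, as did the activator subunits Psme1 (-1.18) and Psme2 (-1.01). Psme1 was at 303, 424 and 344 CPM against 161, 156 and 157, with a control of 169, 159 and 165. None of the 32 constitutive proteasome subunits passed the test, and 31 of their estimates were below 0 (median -0.07), with Psma7 at -0.09 (adjusted p = 0.553) and Psmb3 at -0.13 (adjusted p = 0.419) as the most abundant. Psmg4, a chaperone of proteasome assembly, fell by 0.37 from 94.2, 116 and 117 to 75.1, 84.7 and 96.6 CPM. Its groups overlapped between replicates although it was lower in each of them.

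Of 20 tested MHC class I genes, 7 fell, none rose and all 20 estimates were below 0 (median -0.69). Nlrc5, the activator of class I genes, was at 1.37, 3.52 and 2.95 CPM against 0.143, 0.0847 and 0.106 with both antibodies (-4.51, SE 0.712, adjusted p = 0.00755). The peptide transporter Tap1 went from 6.90, 21.0 and 16.5 CPM to 2.80, 3.70 and 3.44 (-2.12, adjusted p = 0.025), and the peptide editors Tapbpl (-1.50) and Tapbp (-0.997) and the trimming peptidase Erap1 (-0.51) fell with it. The nonclassical H2-T22 (-0.62) and H2-M3 (-0.53) passed the test too. The classical heavy chains and B2m were not called over all cells. H2-K1 was at 131, 220 and 204 CPM against 105, 127 and 134 (-0.60, adjusted p = 0.0688), H2-D1 was at 234, 385 and 373 against 186, 210 and 244 (-0.63, adjusted p = 0.112), and B2m was at 288, 343 and 346 against 234, 214 and 219 (-0.57, adjusted p = 0.138). All 3 were lower in each replicate, and the groups overlapped for H2-K1 and H2-D1. BALB/c mice carry other H2 alleles than the reference genome, and H2 class I genes share sequence, so counts of single H2 genes are less certain than those of the other genes named.

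MHC class II genes spanned the widest range between replicates. Cd74, the invariant chain that guides class II molecules, was at 42.5, 438 and 264 CPM with anti-IL-10R and at 1.86, 5.02 and 3.28 with both antibodies. Control organoids held 1.76, 5.12 and 3.4 CPM, Treg cells without antibody gave 13.0, 282 and 65.1 CPM, and the cytokines gave 1163, 1087 and 1555 CPM. Even the lowest value with anti-IL-10R, in replicate 1, was above the highest with both antibodies, and the fold change was -5.97 (SE 0.739, adjusted p = 0.00174). Ciita gave 135, 466 and 83 UMIs against 1, 7 and 3 (-5.68, SE 0.735, adjusted p = 0.00194). The chains H2-Aa (-5.51), H2-Eb1 (-5.69) and H2-Ab1 (-5.11), the peptide exchange factor H2-DMa (-2.07) and Ctss (-0.82), the protease that cuts the invariant chain, also fell. H2-DMb2 passed the test with 9, 157 and 20 UMIs against 1, 1 and 0. In all, 8 of 13 tested class II genes fell and none rose (median -5.02), while 4 of the 17 listed had too few counts. H2-DMb1 was at 0.698, 13.0 and 4.36 CPM against 0.0859, 0.31 and 0.0529 and missed the threshold (-5.02, adjusted p = 0.0595).

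GTPases of the interferon response had large estimates and few calls. Of 16 tested GBPs and immunity-related GTPases all 16 estimates were below 0 (median -4.18, or -4.08 with the 4 members that were at 0 in every replicate of a group set to their bound of 3 UMIs), but only Ifi47 passed the test. Ifi47 was at 4.11, 7.69 and 6.72 CPM against 0.916, 0.536 and 1.01 (-2.98, SE 0.48, adjusted p = 0.00787). Igtp was at 3.17, 17.5 and 11 CPM against 0.487, 0.536 and 0.847 and had a larger SE of 1.07 (-4.17, adjusted p = 0.13), and Irgm1 was at 15.1, 27.8 and 18.8 against 7.53, 6.86 and 8.79 (-1.45, adjusted p = 0.1). The groups did not overlap for these 3 genes. Gbp7 went in the same direction (-2.94, adjusted p = 0.196) and Iigp1 too (-3.86, adjusted p = 0.286). These families hold close copies whose reads could be split between them. Among 15 chemokines, checkpoint ligands and genes of tryptophan catabolism 1 fell (median -0.50), the lectin Lgals9, from 360, 337 and 302 to 264, 205 and 212 CPM (-0.57, adjusted p = 0.00623). Cxcl10, a chemokine for T cells, was at 0.51, 0.695 and 0.649 CPM against 0.143, 0.226 and 0.106 (-1.99, adjusted p = 0.434). Cd274, which encodes PD-L1, gave -0.85 (adjusted p = 0.702), and its groups overlapped.

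Among 38 tested antiviral genes 3 fell and 1 rose (median -0.41). Epsti1 fell by 0.42 and Xaf1 by 1.51, and Tap1 is on this list as well. Ifit2, an antiviral protein that binds RNA, ran the other way with 18, 13 and 6 UMIs under anti-IL-10R against 48, 31 and 24 with both antibodies (1.61, SE 0.329, adjusted p = 0.042). Its groups did not overlap in CPM, and the control held 0.997, 1.22 and 0.835 CPM against 1.37, 0.875 and 1.27 with both antibodies. Ifitm3, which blocks the entry of viruses into cells and is on none of the lists, fell by 1.10 (SE 0.11, adjusted p = 0.000384) from 432, 550 and 493 to 239, 227 and 223 CPM. Nmi, a partner of STAT proteins, fell by 0.69 from 27.0, 25.9 and 27.9 to 18.6, 15.2 and 16.6 CPM. Of 31 tested genes of the cell death list 4 fell and none rose (median -0.19). They were the death ligand Tnfsf10 (-0.999, from 23.7, 22.8 and 21.5 to 12.9, 10.5 and 11.2 CPM), Casp1 of the inflammasome (-0.47), Casp12 (-1.996) and Xaf1. Casp12 reached at most 1.23 CPM in any library of the 2 groups.

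**Figure D2:**
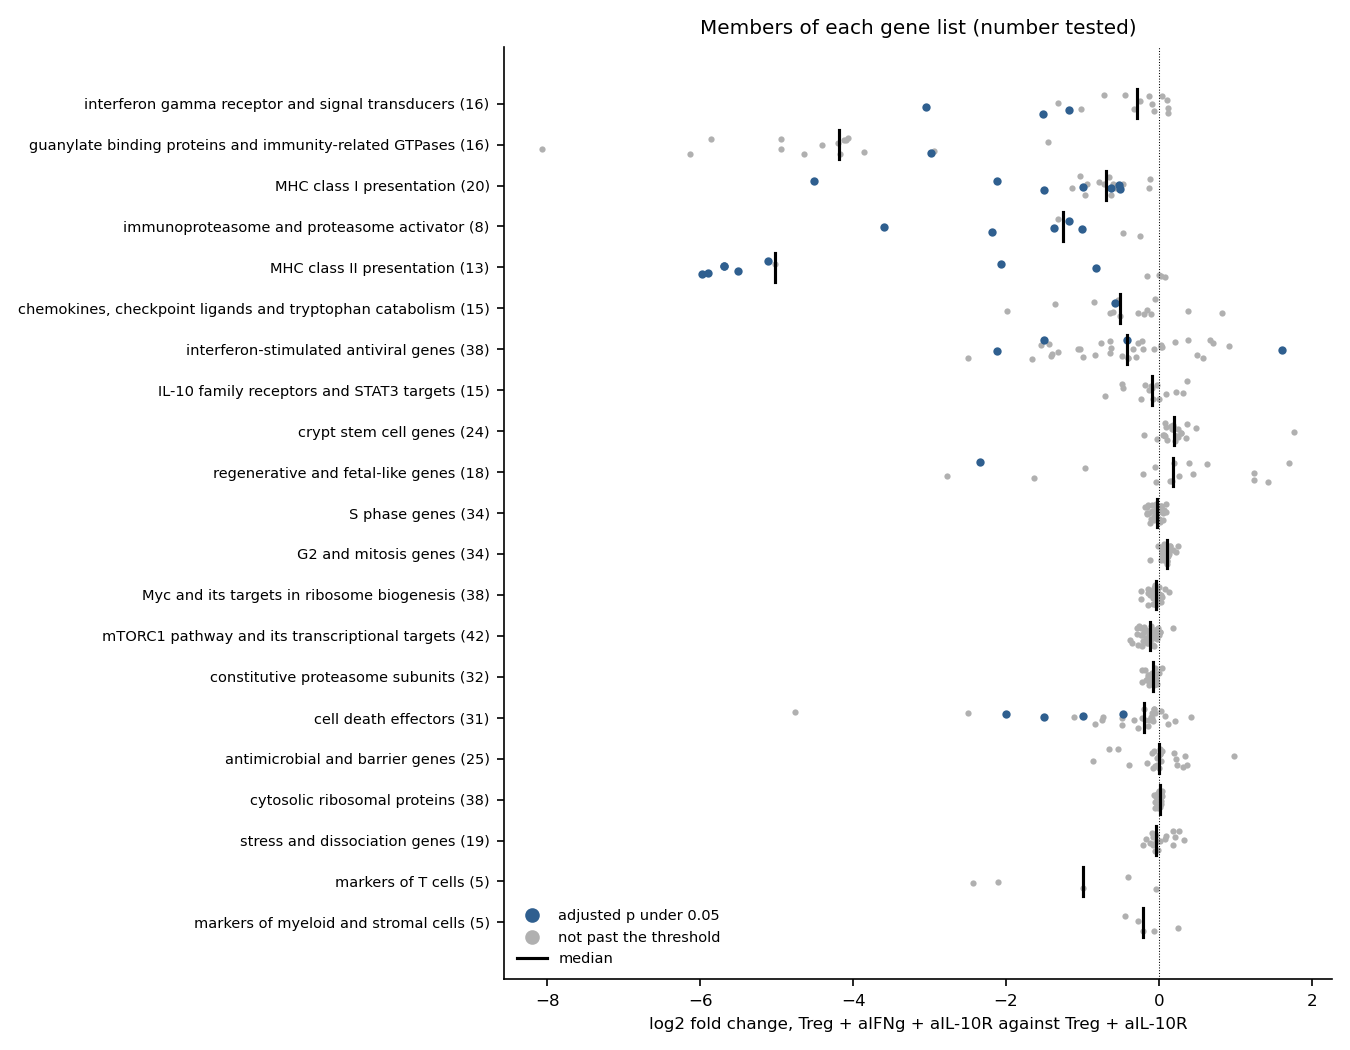
Log2 fold change of the tested members of each gene list, both antibodies minus anti-IL-10R, with each point a gene (blue where the adjusted p was under 0.05) and the line the median of the list. The medians of the interferon lists lie between -5.02 (MHC class II) and -0.29 (receptor and transducers), and those of stem cell, cell cycle, Myc, mTORC1 and ribosomal lists lie between -0.11 and 0.19.

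The 7 lists together had 125 tested members, of which 27 fell and 1 rose, with a median of -0.71. Outside all lists, 43 of the 74 genes fell. They included Adgrd1, an adhesion receptor (3.14, 3.96 and 2.59 CPM against 1.69, 1.07 and 0.90, -1.42), Gm12216, a gene next to Irf1 (6.93, 10.2 and 6.96 CPM against 1.37, 1.55 and 1.43, -2.50), and Ccnd1, a cyclin of the G1 phase (137, 163 and 130 CPM against 104, 106 and 96.8, -0.50, adjusted p = 0.0235). The groups did not overlap in these genes. Called genes lay close to each other in the genome. Of the 84 called genes 23 (27.4%) had another called gene within 50 kb, compared with 182 of 14986 tested genes with a position (1.21%). Irf1 (chr11:53770014-53778374, build GRCm38) and Gm12216 (chr11:53783418-53859256), Psme1, Psme2 and Irf9 on chromosome 14, and H2-DMa, H2-DMb2, Psmb9, Tap1 and Psmb8 on chromosome 17 are such groups. Ciita and Dexi, and Psmb9 and Tap1, overlap on opposite strands. Usf1 (-0.26) and Tstd1 (0.44) overlap on the same strand over the end of Usf1 and the start of Tstd1 and moved in opposite directions, so that reads there could be assigned to either.

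Each of the 74 genes had a mean above the control with anti-IL-10R and a higher mean still with rIFNγ plus rIL-10. With both antibodies the mean lay within 1.5-fold of the control mean for 69 of them. The 74 genes were chosen by the contrast of these groups, which favors a mean above the control with anti-IL-10R. The share of all tested genes within 1.5-fold of the control was not counted, so a return to the control was not tested. Casp12 was more than 1.5-fold above the control mean, and Ciita, Calhm6, Sp110 and Apol10a were more than 1.5-fold below it. With both antibodies Casp12, Ciita, Calhm6 and Sp110 reached at most 0.619, 0.262, 0.0872 and 0.169 CPM in any library, so their gaps to the control rest on few UMIs. The difference between the groups was the smallest in replicate 1 for 60 of the 74 genes and the largest in replicate 2 for 52.

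Among the genes that rose, metallothioneins had the highest counts. Mt1, which binds zinc and copper, was at 5153, 4385 and 4723 CPM with anti-IL-10R and at 6095, 8195 and 6398 with both antibodies (0.52, SE 0.0995, adjusted p = 0.0287). The control was at 6113, 6735 and 5723 CPM and the cytokines at 2859, 3097 and 2322. Mt2 rose by 0.57 and did not overlap either. Ctsh, a lysosomal protease, was at 29.3, 23.4 and 32.2 CPM against 40.0, 37.7 and 43.7 (0.51, SE 0.091, adjusted p = 0.0158). Tdrd12 (1.22) and 4933406C10Rik (0.86) had no overlap between the groups at a few CPM each. Tstd1 (0.44), Sycn (1.04) and Smim8 (0.19) were higher in each replicate but their groups overlapped. Myc was at 72.7, 72.8 and 67.5 CPM against 70.6, 72.1 and 72.7, with an estimate of 0.00 (SE 0.103, adjusted p = 0.997). Lgr5, a receptor that marks crypt stem cells, was at 73.5, 48.7 and 32.3 CPM against 60, 72.2 and 47.3 (0.23, adjusted p = 0.75). Olfm4, another stem cell gene, was at 1148, 709 and 812 CPM against 1281, 1027 and 1134 (0.36, adjusted p = 0.577). The groups overlapped for these 3 genes.

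Over all cells, lists outside the interferon response gave few calls. Of 24 tested crypt stem cell genes none passed the test, 22 had an estimate above 0, and the median was 0.19. Gkn3 was the nearest, at 12.2, 1.34 and 6.60 CPM against 21.5, 14.4 and 23.3 (1.77, SE 0.408, adjusted p = 0.0818). None of 34 S phase genes (median -0.02), 34 G2 and mitosis genes (0.11), 38 genes of Myc and ribosome biogenesis (-0.04), 42 genes of the mTORC1 pathway (-0.11), 38 ribosomal proteins (0.01), 25 antimicrobial and barrier genes (0.01), 19 stress genes (-0.03) and 15 IL-10 receptor and STAT3 target genes (-0.08) was called over all cells. Estimates were below 0 for 37 of the 42 mTORC1 genes and for 27 of the 38 genes of the Myc list. Il10rb was at 23.1, 24.5 and 27.7 CPM against 23.3, 25.1 and 27.8, and Il10ra gave 2 UMIs with anti-IL-10R and 0 with both antibodies. Of 18 regenerative and fetal-like genes Ly6e fell by 2.34 (2.12, 6.21 and 7.72 CPM against 1.29, 0.705 and 0.90, adjusted p = 0.0402), and the median was 0.19. Ly6e is also induced by interferons, and its call was lost without the 5 barcodes with T cell markers. The 5 tested T cell markers (median -0.99) and 5 tested myeloid and stromal markers (-0.21) gave no call.

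The same genes were then followed from the sums to single cells. Each cell was thinned at random to 10000 UMIs, so that depth was equal, and the share of UMIs from genes of the interferon lists was set against the 95th percentile of that replicate's control cells. With anti-IL-10R 18.4%, 67.7% and 47.9% of cells lay above this limit, and with both antibodies 3.20%, 4.83% and 2.48% did. Control cells gave 4.74%, 4.57% and 4.94%, and cytokine-stimulated cells 99.3%, 97.3% and 100%. The difference between the groups was -41.1 percentage points (SD 24.1, n = 3) and negative in 3 of 3 replicates. With the 99th percentile of control cells as the limit it was -23.5 points. An exact sign-flip permutation test gave a two-sided p of 0.25, the smallest that 3 pairs allow. The median cell drew 0.45%, 0.59% and 0.55% of its UMIs from these genes with anti-IL-10R and 0.38%, 0.35% and 0.37% with both antibodies.

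**Figure D3:**
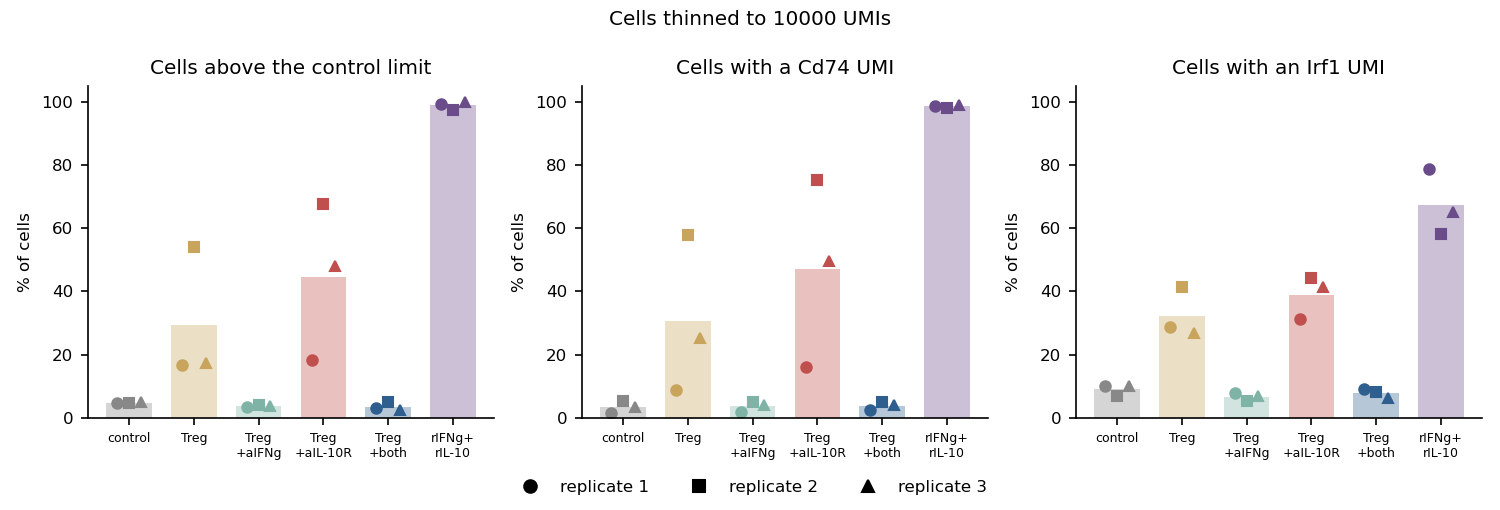
Percent of cells (cells thinned to 10000 UMIs) above the 95th percentile of control cells in interferon gene share, with a Cd74 UMI and with an Irf1 UMI, in the 6 groups; points are replicates and bars their means. With both antibodies 2.48% to 4.83% of cells lay above the control limit, and with anti-IL-10R 18.4% to 67.7% did.

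A Cd74 UMI was seen in 16.1%, 75.1% and 49.6% of thinned cells with anti-IL-10R (29.6%, 87.2% and 66.1% without thinning). With both antibodies these shares were 2.40%, 4.83% and 3.96% (8.28%, 19.3% and 12.9% without thinning), and in the control they were 1.47%, 5.26% and 3.49%. All groups were pooled in a library, and a UMI at the share of the control is not read as expression. In replicate 1 with anti-IL-10R the 79 of 790 cells with the most Cd74 held 82.6% of its UMIs, and the same proportion of cells held 31.6% and 43.1% in replicates 2 and 3. The highest cell held 79 UMIs in replicate 1 with anti-IL-10R, and no cell with both antibodies held more than 3. An Irf1 UMI was seen in 31.1%, 44.2% and 41.5% of thinned cells with anti-IL-10R, in 8.95%, 8.2% and 6.19% with both antibodies and in 9.97%, 6.97% and 10.2% of control cells.

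Cells were assigned to classes by their correlation with clusters of control cells, over 532 genes that left out the interferon and antigen presentation genes. As a check, control cells of each replicate were assigned from cluster profiles of the other replicates, and 82.4% to 85.0% received their own cluster's class again. The clusters and the 532 genes came from all control cells, the checked ones included, which favors this agreement. Of the 532 genes none was called over all cells, while 9 were called in transit amplifying-like (TA-like) cells, 7 in intestinal stem cell-like (ISC-like) cells, 6 in enterocyte progenitor-like (EP-like) cells, none among goblet/Paneth-like and 1 among enterocyte-like cells. ISC-like cells made up 25.4%, 20.3% and 17.3% of the cells with both antibodies and 22.7%, 12.3% and 12.6% with anti-IL-10R, a difference of 5.12 points (SD 2.63, n = 3). EP-like cells made up 18.2%, 16.3% and 14.6% against 18.5%, 20.5% and 20.2%, a difference of -3.36 points (SD 2.72, n = 3). Both differences had the same sign in 3 of 3 replicates, and each gave p = 0.25 in the exact sign-flip test, so a difference cannot be told from the spread in this design. The share of TA-like cells differed by 1.51 points, of enterocyte-like by -1.32, of goblet/Paneth-like by -1.79, of endocrine-like by -0.36 and of cells in unnamed clusters by 0.19, without the same sign in all replicates.

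The fall of interferon response genes was found in each class that was tested. Among ISC-like cells 49 of 11345 genes were lower (0.432%) and 18 higher (0.159%), among TA-like cells 105 of 12657 were lower (0.83%) and 40 higher (0.316%), and among EP-like cells 71 of 11572 were lower (0.614%) and 10 higher (0.0864%). Enterocyte-like cells had 39 of 10092 genes lower (0.386%) and 6 higher (0.0595%), and goblet/Paneth-like cells, with as few as 10 cells in a replicate, had 9 of 9178 lower (0.0981%) and 0 higher (0%). Most of the 5 barcodes with T cell markers were assigned to TA-like cells and the rest to enterocyte-like cells. Without them 100 genes were lower among TA-like and 42 among enterocyte-like cells. Vim (-4.51) was among the assignment genes called in TA-like cells, but it was not called over all cells (-0.44, adjusted p = 0.935). Without the 5 barcodes the myeloid and stromal markers, Vim among them, went from 257 to 229 UMIs in replicate 2 with anti-IL-10R. In replicate 3 they went from 233 to 157. Whether the call of Vim holds without these barcodes is not reported here. Cd74, H2-Aa, H2-Ab1, Psmb8, Psmb10 and Psme1 were lower in 5 of 5 classes. A further 16 genes were lower in exactly 4, including Irf1, Ifitm3, Psmb9, Tap1, Ciita and the class I genes H2-K1, H2-D1 and H2-T3. H2-K1 fell by 0.69 among ISC-like cells, by 0.59 among TA-like, by 0.55 among enterocyte-like and by 0.46 among EP-like cells. B2m passed the test among enterocyte-like (-0.71), EP-like (-0.60) and TA-like cells (-0.49). Of the tested members of the 7 lists, 42 of 110 fell among TA-like, 32 of 101 among EP-like, 25 of 97 among ISC-like, 23 of 91 among enterocyte-like and 7 of 81 among goblet/Paneth-like cells. Ccl20, a chemokine of dendritic and T cells, rose among TA-like (0.84) and ISC-like cells (1.14) and Ifit2 among TA-like cells (1.53), and no other member rose. Of the Myc list only Ldha was called, lower among ISC-like (-0.28, adjusted p = 0.0292) and TA-like cells (-0.27, adjusted p = 0.0347). Of the 42 counted members of the mTORC1 list only Pgk1 was called, lower among TA-like cells (-0.34, adjusted p = 0.0263), where 36 of 42 estimates were below 0. Aldoa is on that list too but shares its symbol with another gene and was left out of the list counts. It was called lower among TA-like cells as well (-0.34, adjusted p = 0.0402). Pim1 of the STAT3 list was lower there too (-0.53), and the mitosis genes Hmmr (0.22) and Nusap1 (0.34), both assignment genes, were higher.

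In ISC-like cells Cd74 was at 70.0, 557 and 260 CPM with anti-IL-10R and at 1.48, 5.13 and 3.53 with both antibodies (-6.33, adjusted p = 3.95e-06). The genes with the lowest p in this class were Irf1 (-2.56), Cd74, Psme1 (-1.19), Psme2 (-0.97) and Psmb8 (-3.37). The most certain rises were those of Ctsh (0.87), S100g, a calcium-binding protein (1.04), Mt2 (0.48), Igfbp4, which binds insulin-like growth factors (0.83), and Cttnbp2 (0.64). S100g was at 37.5, 30.2 and 40.4 CPM against 58.8, 68.7 and 107, with no overlap, while the control was at 54.5, 46.4 and 60.6. Olfm4 was at 2414, 1511 and 2216 CPM in these cells against 2519, 2126 and 3187, and the groups overlapped (0.34, adjusted p = 0.0447). Sox9, a transcription factor of the crypt base, rose by 0.27 and Gkn3 by 1.38, so that 3 of 24 tested crypt stem cell genes rose in this class and none fell. S100g, Cttnbp2 and Olfm4 are among the 532 genes by which cells were assigned, and a change of their level cannot be told apart there from a change in which cells were assigned. Gkn3 is not among the 532 genes but was a leading gene of an ISC-like control cluster, so the same limit holds for it.

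In TA-like cells Ifitm3 (-1.19), Psme2 (-1.01), Irf1 (-3.56), Irf9 (-1.57) and Psme1 (-1.16) had the lowest p among the genes that fell. Irf9 passed the test among EP-like cells as well (-1.41). It did not pass among ISC-like (-0.59, adjusted p = 0.209), enterocyte-like (-0.20, adjusted p = 0.924) or goblet/Paneth-like cells (-1.39, adjusted p = 0.863). Mt1 (0.67), Igfbp4 (0.79), Mt2 (0.70), Tstd1 (0.58) and 4933406C10Rik (1.27) rose. In EP-like cells Irf1 (-3.12), Psme1 (-1.23), Psmb8 (-3.62), Lgals9 (-0.68) and Ifitm3 (-1.33) led the fall, and Mt2 (0.61), Tstd1 (0.37), Mt1 (0.55), Ttr (1.18) and the growth hormone receptor Ghr (1.08) rose. Mt1, Mt2, Tstd1 and Ttr were each higher in 3 classes. In goblet/Paneth-like cells Ifitm3 (-1.46), Cd74 (-6.68), Psme1 (-1.20), H2-Eb1 (-5.28) and H2-Ab1 (-6.45) led the fall, and Irf1 did not pass the test there (-1.94, adjusted p = 0.0973).

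In enterocyte-like cells Psme1 (-1.10), Psmb8 (-3.62), Adh6a (-2.77), Psmb10 (-1.41) and Psmb9 (-2.29) fell. Adh6a, an alcohol dehydrogenase, was at 18.1, 42.9 and 86.6 CPM with anti-IL-10R and at 3.65, 6.28 and 11 with both antibodies (adjusted p = 1.97e-05). Of the genes that rose, Edn1, Anxa10, Tdrd12 and Ttr were each below 2 CPM with anti-IL-10R. The vasoconstrictor peptide gene Edn1 was at 1.61, 0.774 and 1.91 CPM against 9.82, 21.1 and 5.79 (3.19, adjusted p = 0.0107) and at 12.0, 23.5 and 14.2 in the control. Anxa10, a protein that binds phospholipids, was at 0.645, 0.258 and 0.957 CPM against 3.65, 12.6 and 5.21 (3.57, adjusted p = 0.0158), and Tdrd12 (2.78), Ttr (2.76) and Plcxd2 (1.22) rose with it. The groups did not overlap for Edn1, Anxa10, Tdrd12 and Ttr. Anxa10 is not among the genes used for the assignment but was a leading gene of an EP-like control cluster, and its rise cannot be told apart from a change in which cells were assigned to the class.

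**Figure D4:**
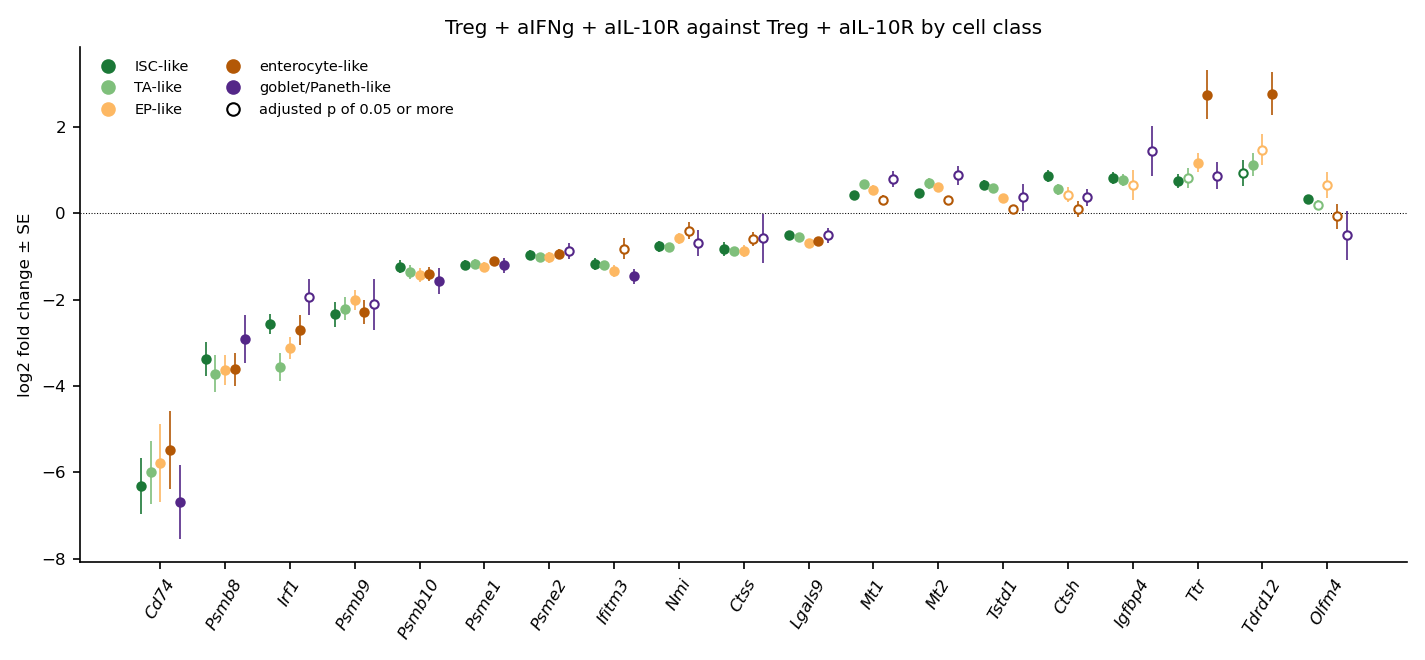
Log2 fold change (both antibodies minus anti-IL-10R, vertical axis, with SE bars) of named genes along the horizontal axis in 5 cell classes, with open points where the adjusted p was 0.05 or more. Cd74 lies between -6.68 and -5.48 in the 5 classes, and Tdrd12 and Ttr lie highest in enterocyte-like cells, at 2.78 and 2.76.

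Whether the effect differed between enterocyte-like and ISC-like cells was tested directly, in the difference of the 2 fold changes. The fit had a replicate block within each class and no term for the culture that both classes came from. Their sums were thus treated as independent, and a lack of calls does not show that the effects were alike. None of 11343 genes passed (0%), with 560 at an unadjusted p under 0.05 and the lowest adjusted p of 0.193 for Anxa10. Cldn2, Casp6, Apob and Plcxd2 followed (adjusted p = 0.466 for each). When genes with few counts were kept in the test, 51 passed, with a lowest adjusted p of 2.31e-25. The fit of such genes was not checked, so no conclusion is drawn from the 51.

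The effect of anti-IFNγ was also tested in the absence of anti-IL-10R. There, 28 of 14994 genes were lower with anti-IFNγ (0.187%) and 1 was higher, in a comparison of other cells from the same 5 libraries and 3 replicates, made in the same fit. The difference of the fold changes with and without anti-IL-10R, the interaction, passed the threshold for none of 14994 genes by edgeR (0%, 293 at an unadjusted p under 0.05) and for none by DESeq2. The lowest p were those of Gm16549, Gm13963, Gm9573, 4930550C14Rik and Rspo4 (adjusted p = 1 for each). All 74 genes that fell with anti-IL-10R had an estimate below 0 without it, and all 10 genes that rose had an estimate above 0. The estimate was lower with than without anti-IL-10R for 69 of the 74, which were chosen by their effect with anti-IL-10R, a choice that favors larger estimates there. The 95% interval of the difference held 0 for 70 of the 74. These intervals were built from the SE with the median degrees of freedom over genes (14.3).

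**Figure D5:**
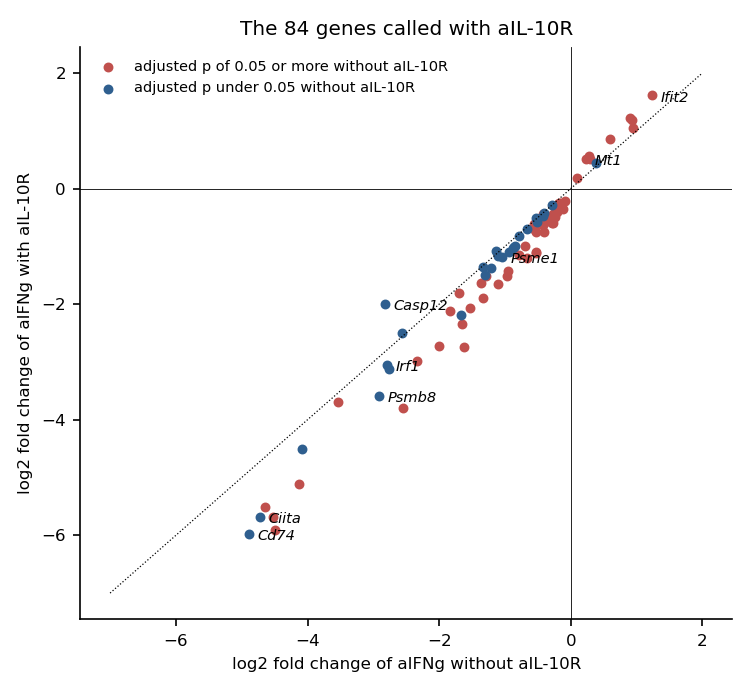
Log2 fold change with anti-IFNγ in the absence of anti-IL-10R (horizontal) against that in its presence (vertical) for the 84 called genes, with a dotted line of equal change and blue points where the gene also passed the threshold without anti-IL-10R. All 74 genes that fell lie below 0 on both axes, and Irf1 lies at -2.79 and -3.05.

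For Irf1 the fold change was -3.05 with and -2.79 without anti-IL-10R, a difference of -0.25 (95% interval -1.09 to 0.579). Psmb8 gave -3.59 and -2.91, a difference of -0.68 (-1.91 to 0.559). For Cd74 it was -5.97 and -4.89, and the interval of the difference, -1.08, was wide (-3.33 to 1.17). Among the genes that rose Mt1 gave 0.52 and 0.23 (difference 0.29, -0.0126 to 0.588). These intervals cover both equal effects and sizable differences, and the test does not show that the effects were alike.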

How the data were processed

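The authors sequenced the hashed, pooled cells of the 6 groups as 3′ single-cell libraries with a hashtag library each, joined the reads of 2 sequencing runs and mapped them with Cell Ranger (7.0.0 per the submitters' processing notes, build GRCm38/mm10) and deposited, for each library, UMI counts per gene and hashtag of the barcodes taken as cells. The deposited counts are whole numbers without normalization. The library that the study excluded was not used, and the deposited key gave each hashtag's group.

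Hashtags were called per library with HTODemux (Seurat 5.3.0, positive quantile 0.99) after centered log-ratio transformation, and barcodes with several hashtags were removed as doublets. Doublets within a group were not called. The study's limits on UMIs (10000 to 90000), genes (3000 to 10000) and the mitochondrial share (8.5%) were then applied. Control cells were clustered (scanpy 1.11.5, leidenalg 0.10.2, 3000 variable genes, 30 principal components, 20 neighbors, resolution 1, and 0.3 for secretory cells) into 12 clusters. Clusters were named from marker genes once they had been seen, and names may differ from those of the study. Every cell received the class of the cluster with the highest correlation.

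UMIs were summed per group and replicate, over all cells and per named class with at least 10 cells in each replicate of both groups. Cells of unnamed clusters were not tested as a class. Sums per class held 340202 to 18304641 UMIs. They were tested with edgeR 4.0.16 (R 4.3.3, glmQLFit and glmQLFTest, TMM, filterByExpr) with all 6 groups in the fit, a block for the replicate and a threshold of 0.05 after Benjamini-Hochberg adjustment. The replicate numbers come from the labels. After the group means were removed, the 2 groups of a replicate correlated with 0.573, 0.35 and 0.318 in replicates 1, 2 and 3 over all cells and with more than 0.1 in every class, so that the block was kept. Alternatives were DESeq2 1.42.0, other fits, filters, cell limits and sets of replicates. The script was first tested on simulated data. The members and lists were chosen with earlier results of these data known. Named were the 15 genes with the lowest p in each direction, up to 6 called members of each list (or 2 abundant members where none was called), Myc, Lgr5 and Olfm4, the top 5 by class, interaction and class difference, and the 6 promoters with the lowest p. Other genes named, such as Igtp, Irgm1, Gbp7, Iigp1, Cxcl10, Cd274, H2-K1, H2-D1, B2m, H2-DMb1, Socs1, Gkn3, Ccnd1, Sox9 and receptor genes, were chosen after their values had been seen. Some counts at or near 0 are given as UMIs and others, such as those of Nlrc5, H2-DMb1 and Cxcl10, only as CPM. Limits set to 3 UMIs cover counting error only. Some results are not reported here.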

Additional observations from a re-analysis of the deposited data

How the results depend on the processing

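All 84 genes called over all cells kept their direction in every alternative in which they were tested (82 of them in the fit of only the 2 groups), but their number changed with the setting. Over all cells 24 genes were called without the replicate block (24 lower, 0 higher), 265 with only the 2 groups in the fit (203 lower, 62 higher), 162 with DESeq2 (131 lower, 31 higher), 133 without a filter on low counts, 420 with the library as block (274 lower, 146 higher, where libraries of a replicate count as independent) and 51 in cells up to 60000 UMIs. Leaving out 1 replicate in turn gave 0 to 341 (229 lower and 112 higher without replicate 1). In ISC-like cells 12 genes were called without the replicate block, 158 with only the 2 groups, 217 without the filter and 14 to 160 without a replicate. The same settings gave 27, 280, 713 and 8 to 542 in TA-like, 22, 236, 341 and 15 to 134 in EP-like and 9, 237, 195 and 4 to 48 in enterocyte-like cells. In goblet/Paneth-like cells 19 were called with only the 2 groups, 94 without the filter and 1 to 18 without a replicate. The difference between classes gave 51 without the filter and 0 to 2 without a replicate. The cause of these differences was not tested.

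Without replicate 3 the difference in class share turned to -0.75 points for TA-like (range without a replicate -0.75 to 4.17), 0.23 for endocrine-like (-0.67 to 0.23), 0.14 for enterocyte-like (-2.87 to 0.14) and -1.14 for unnamed cells (-1.14 to 1.11). The paired and the unpaired exact permutation test gave p = 0.25 and p = 0.3 for the ISC-like share (range without a replicate 3.72 to 6.32 points) and p = 0.25 and p = 0.1 for the EP-like share, neither under 0.05. Leaving out the 5 barcodes with T cell markers was an alternative chosen after seeing the data. Equal numbers of cells per group or class, upper quartile normalization and wider limits on cells left the count over all cells within 1.5 times of 84. With 3 replicates no exact test of shares or scores could reach 0.05, and genes with few UMIs, such as the GTPases, had wide errors.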
